A study of Schizosaccharomyces pombe with 5 samples.

Results

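Ubiquitin is attached to proteins and taken off again by sets of enzymes, and 59 genes for such enzymes were followed here out of 4797 genes measured on the arrays. They were chosen by symbol alone, as genes named ubc, ubp, uch, otu, apc, csn, skp, cul or pof with a number, and the rule uses no measured value. Each of the 59 genes had 1 spot on the array. They comprise 11 ubiquitin conjugating enzymes (ubc), 18 deubiquitinases (15 ubp, 2 uch and 1 otu), 7 subunits of the anaphase promoting complex (APC/C, apc), 4 subunits of the COP9 signalosome (csn) and 19 genes of SCF and related cullin ligases (skp1, 3 cul and 15 pof genes, which encode F-box proteins). RefSeq holds 62 genes with such symbols, and csn2, csn3 and otu1 were not analysed here. The gene csn4 had no value on the vegetative array, and the other 58 genes had values on all 5 arrays.

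The cells were fission yeast (Schizosaccharomyces pombe, strain L972, a heterothallic h minus strain). Cells in 5 conditions, here called growing cells, were each set against cells in the resting G0 state. The conditions were 1, 2, 3.5 and 6 h after nitrogen replenishment and logarithmic (vegetative) growth. The G0 cells had spent 48 h without a nitrogen source at 26 °C. Whether cells at the early times were already growing is not shown by the arrays. Replenishment added 4 volumes of fresh EMM2 minimal medium, so nitrogen and fresh medium came together and their effects cannot be told apart. Each condition had 1 array of polyadenylated RNA with G0 RNA in the other channel and no repeat, so a difference from G0 or between arrays has no replicate check and no test.

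A protein is marked with ubiquitin in a relay: an E1 enzyme activates ubiquitin, an E2 (ubc) enzyme carries it, and an E3 ligase brings the E2 to the substrate. SCF ligases are built on a cullin with the adaptor Skp1 and an exchangeable F-box protein that picks the substrate, the APC/C destroys cyclins and securin in mitosis and G1, and the COP9 signalosome takes the ubiquitin-like protein NEDD8 off cullins. Deubiquitinases cut ubiquitin from substrates, edit chains and make free ubiquitin from precursors. In fission yeast, the APC/C with its activator Ste9 is needed for the arrest in G1 that precedes G0, and many marked proteins end in the proteasome.

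Values below are log2 ratios with growing cells on top and G0 cells below, so 1 means 2-fold higher and -1 means 2-fold lower than G0. For the base, which was not given in the sources used here, 2 was assumed. Gene medians lay between 0.00 and 0.14 over the 5 arrays. Repeated spots of cdc2, nda3 and nuc1 differed with a pooled SD of 0.18 to 0.25 per array, and 12 unnamed repeated positions with 0.38 to 0.47, which is the only error these arrays measure. Values of the 1 h and 2 h arrays came with 9 decimals and those of the other 3 arrays with 3, and the labels do not say whether the same G0 RNA served all arrays. In RNA of a whole culture, a change in the share of cells and a change per cell cannot be told apart. The M-cell genes mfm1 and mam2 stood at -7.83 and -5.75 in vegetative cells and the P-cell gene map3 at 0.51, but a ratio does not show that RNA was present, so the mating type was not checked.

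Few of these genes stood 2-fold or more above G0, and more stood 2-fold or more below it, while those above and below 0 numbered 28 and 31 at 1 h. At 1 h, 5 of the 59 genes (8.47%) were at least 2-fold higher, where 23.4% of all 4769 genes were, and 19 (32.2%) were at least 2-fold lower, where 22.6% of all genes were. At 2 h, 4 genes were higher (all genes 22.8%) and 14 lower (21.3%). Later arrays had fewer low genes. The 3.5 h array had 5 higher (18.9% of all genes) and 8 lower (16.7%). The 6 h array had 4 higher (15.6%) and 8 lower (14.9%), and the vegetative array 3 of 58 higher (15.8%) and 10 lower (14.6%). The higher share thus lay below that of all genes on each of the 5 arrays. The lower share lay above that of all genes at 1 h and close to it on the other arrays, where it was 23.7%, 13.6%, 13.6% and 17.2% of the members. With each block of spots centred on its median, 4 of the 59 were higher and 12 lower at 3.5 h, and the split over all genes on that array became 707 higher and 994 lower, against 902 and 800 as deposited. Centring the whole 3.5 h array, which lowers each value on it by 0.14, gave 4 higher and 11 lower.

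**Figure D1:**
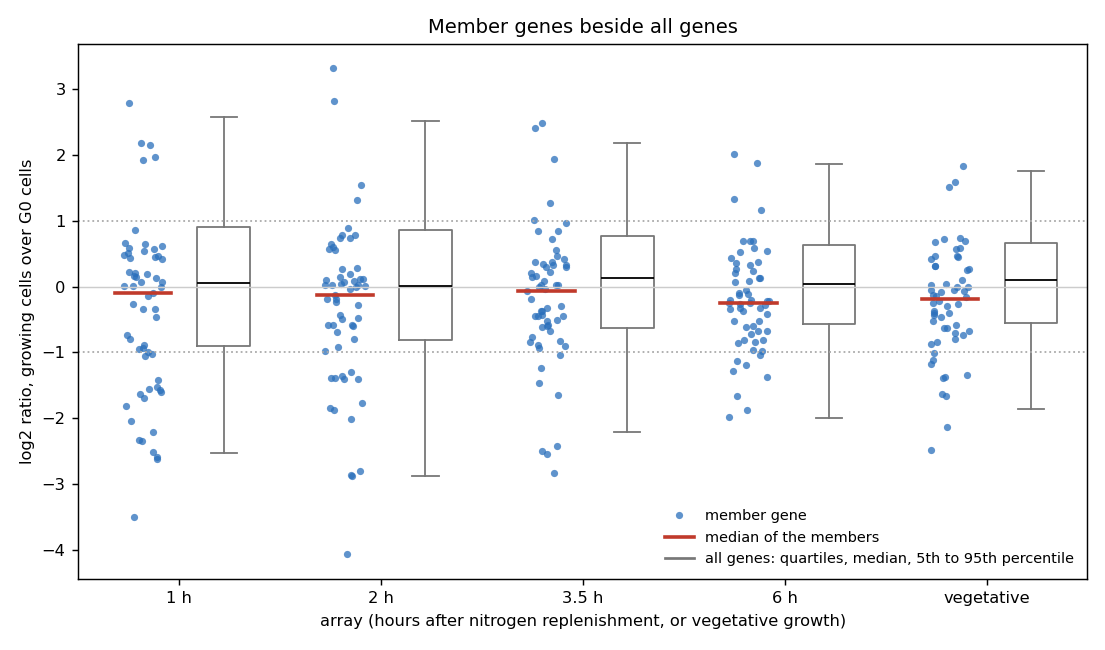
Log2 ratio over G0 (vertical axis) on each array, with a point for each of the 59 genes, a red line at their median, and a box for all genes (quartiles and median, whiskers at percentiles 5 and 95). Dotted lines mark 2-fold. The median of the 59 genes ran from -0.25 to -0.06 and lay below that of all genes (0.00 to 0.14) on every array.

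In array order, that is 1, 2, 3.5 and 6 h and then vegetative, the median of the 59 genes was -0.10, -0.12, -0.06, -0.25 and -0.18. Many of them lay close to G0. The median size of the log2 ratio, sign ignored, was 0.74, 0.60, 0.50, 0.52 and 0.49 in array order, where all genes had 0.90, 0.83, 0.715, 0.60 and 0.63. Of the 59 genes, 30 (50.8%) stayed within 2-fold of G0 on every array with a value, and 33.6% of all 4797 genes did. No member was 2-fold higher on 1 array and 2-fold lower on another. Of the 58 genes with all values, ubp3, ubp12 and ubp16 were at least 2-fold higher on all 5 arrays (7.75% of all genes were) and pof11, pof14 and pof15 at least 2-fold lower on all 5 (6.1% of all genes).

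**Figure D2:**
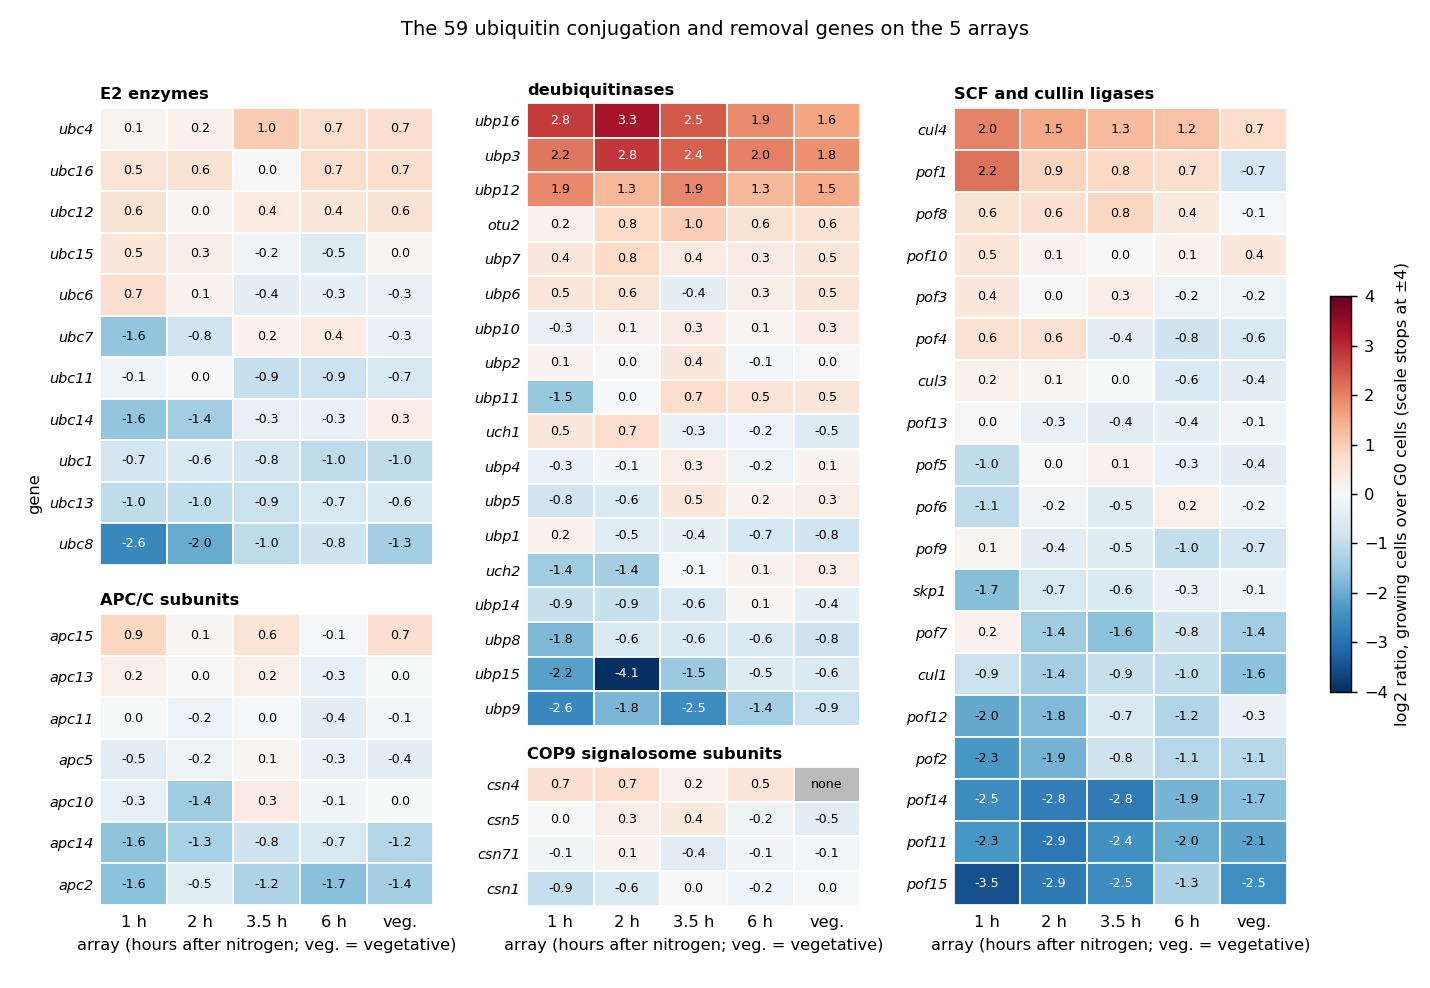
Log2 ratio over G0 of each of the 59 genes (rows, grouped by role and ordered by mean) on the 5 arrays (columns), with red above and blue below G0 and the value to 1 decimal in each cell. The colour scale stops at 4 either way, grey marks the missing value of csn4, and high values gather in ubp16, ubp3, ubp12 and cul4 and low ones in F-box genes, ubc8, ubp9 and ubp15.

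None of the 11 E2 genes stood 2-fold higher at 1 h, where 5 lay above G0 and 6 below. At 1 h, 4 were at least 2-fold lower, namely ubc7, ubc8, ubc13 and ubc14, and the later arrays had 2, 1, 1 and 2 such genes. The share at 1 h was 36.4%, where 22.6% of all genes were lower. Later shares were 18.2%, 9.09%, 9.09% and 18.2%, where 21.3%, 16.7%, 14.9% and 14.6% of all genes were lower. The gene ubc8, lowest of the E2 genes on every array but that of 6 h, where ubc1 was lower, is one whose budding yeast counterpart acts in the glucose-induced breakdown of fructose bisphosphatase. It stood at -2.62, -2.02, -1.04 and -0.84 at 1, 2, 3.5 and 6 h and -1.34 in vegetative cells. It was past 2-fold on 4 of the 5 arrays, with 6 h as the exception. The gene ubc7, for an E2 of endoplasmic reticulum associated degradation, stood at -1.56, -0.79, 0.16 and 0.37 at 1, 2, 3.5 and 6 h and -0.25 in vegetative cells. Its low values were limited to the early arrays. Its partner of the same degradation route, ubc6, stood at 0.66, 0.14, -0.43 and -0.35 at 1, 2, 3.5 and 6 h and -0.29 in vegetative cells. It stayed within 2-fold on every array. The signs of ubc6 and ubc7 were opposite on 4 of the 5 arrays. At 2, 3.5 and 6 h, however, 1 or both values were smaller than the SD of unnamed repeated positions (0.43, 0.40 and 0.47). Those signs are uncertain.

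The other E2 genes were past 2-fold on 1 or 2 arrays, or on none. The gene ubc14 stood at -1.58, -1.39, -0.30 and -0.25 at 1, 2, 3.5 and 6 h and 0.31 in vegetative cells, so it was 2-fold lower at 1 and 2 h and above G0 in vegetative cells. The gene ubc13, whose product makes chains linked through lysine 63 of ubiquitin with Mms2, reached the 2-fold limit at 1 h alone and lay between -1.001 and -0.62 over the 5 arrays. The gene ubc1 was at -0.74, -0.58, -0.77 and -1.04 at 1, 2, 3.5 and 6 h and -1.01 in vegetative cells, on the low side on every array. On the high side, ubc4, a general E2 that also serves the APC/C, stood at 0.07, 0.19, 1.01 and 0.69 at 1, 2, 3.5 and 6 h and 0.69 in vegetative cells. It was the only E2 gene past 2-fold above G0, and at 3.5 h alone. The other E2 of the APC/C in this list, ubc11, was at -0.14, 0.03, -0.91 and -0.86 at 1, 2, 3.5 and 6 h and -0.68 in vegetative cells, so ubc4 and ubc11 lay on opposite sides of G0 from 3.5 h on. The gene ubc16 was the highest E2 gene at 2 h and in vegetative cells, with 0.53, 0.57, 0.03 and 0.69 at 1, 2, 3.5 and 6 h and 0.72 in vegetative cells. It stayed within 2-fold, as did the NEDD8 conjugating enzyme gene ubc12 (0.05 to 0.59) and ubc15 (-0.52 to 0.47).

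F-box genes held the lowest values of the ligase group. Of the 19 SCF and cullin genes, 8, 7, 4, 5 and 6 were at least 2-fold lower in array order and 2, 1, 1, 1 and 0 higher. The 15 F-box genes made up 7, 6, 4, 5 and 5 of those lower. The lower shares of the 19 genes were 42.1%, 36.8%, 21.1%, 26.3% and 31.6%. Those of the 15 F-box genes were 46.7%, 40%, 26.7%, 33.3% and 33.3%. Of all genes, 22.6%, 21.3%, 16.7%, 14.9% and 14.6% were lower, so both sets lay above all genes on each array. The higher share of the 19 genes lay below that of all genes on each array. These differences were not tested. The gene pof15 stood at -3.51, -2.86, -2.55 and -1.28 at 1, 2, 3.5 and 6 h and -2.48 in vegetative cells, which made it the lowest of the 59 genes at 1 h and in vegetative cells. At -2.33, -2.88, -2.42 and -1.99 at 1, 2, 3.5 and 6 h and -2.13 in vegetative cells, pof11, which also bears the name mug156 for a gene induced in meiosis, varied least among the low F-box genes, with a range of 0.89. The gene pof14, for an F-box protein that binds squalene synthase of ergosterol synthesis, was at -2.51, -2.81, -2.83 and -1.87 at 1, 2, 3.5 and 6 h and -1.67 in vegetative cells. These were the members 2-fold lower on every array.

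Other F-box genes were low on part of the arrays. The gene pof2 stood at -2.34, -1.88, -0.84 and -1.14 at 1, 2, 3.5 and 6 h and -1.12 in vegetative cells, with 3.5 h the only array within 2-fold. With -2.04, -1.76, -0.67 and -1.19 at 1, 2, 3.5 and 6 h and -0.27 in vegetative cells, pof12 was 2-fold lower on 3 arrays and not in vegetative cells. The gene pof7 differed in order, since it lay above G0 at 1 h, with 0.16, -1.41, -1.65 and -0.82 at 1, 2, 3.5 and 6 h and -1.39 in vegetative cells. At 1 h alone, pof5 (-1.02) and pof6 (-1.05), for a protein essential for cell separation, were 2-fold lower. Another 6 F-box genes stayed within 2-fold on all arrays. Among these, pof8, whose product is needed for telomerase assembly, ranged between -0.05 and 0.84, and pof3, which acts in genome integrity, between -0.21 and 0.43. The others were pof4 (-0.82 to 0.62), pof9 (-0.97 to 0.07), pof10 (0.03 to 0.51) and pof13 (-0.44 to 0.01).

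The F-box gene pof1 and the cullin gene cul4 were the ligase genes at least 2-fold above G0. Pof1 is the counterpart of budding yeast Met30 and marks the stress transcription factor Zip1. Its gene stood at 2.19, 0.89, 0.84 and 0.69 at 1, 2, 3.5 and 6 h and -0.71 in vegetative cells, so it was past 2-fold at 1 h alone and below G0 in vegetative cells. The cullin gene cul4, whose ligase with Ddb1 and Cdt2 destroys the ribonucleotide reductase inhibitor Spd1, stood at 1.97, 1.55, 1.27 and 1.16 at 1, 2, 3.5 and 6 h and 0.74 in vegetative cells. Its value was lower at each later time and under 2-fold only in vegetative cells. The SCF scaffold gene cul1 lay on the other side of G0, at -0.89, -1.38, -0.94 and -0.99 at 1, 2, 3.5 and 6 h and -1.64 in vegetative cells. The gene of its adaptor, skp1, stood at -1.70, -0.68, -0.59 and -0.27 at 1, 2, 3.5 and 6 h and -0.13 in vegetative cells. The lowest value of skp1 was thus the earliest and that of cul1 the vegetative one. The gene cul3, for the cullin that works with BTB-domain proteins, ranged from -0.60 to 0.15.

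Signalosome genes stayed within 2-fold of G0. The deneddylase subunit gene csn5 stood at 0.01, 0.28, 0.38 and -0.22 at 1, 2, 3.5 and 6 h and -0.46 in vegetative cells. The gene csn1 was at -0.94, -0.58, 0.03 and -0.25 at 1, 2, 3.5 and 6 h and -0.05 in vegetative cells. The gene csn71, lowest of the 4 at 3.5 h, stood at -0.10, 0.12, -0.44 and -0.13 at 1, 2, 3.5 and 6 h and -0.08 in vegetative cells. The gene csn4 was above G0 at 1, 2, 3.5 and 6 h (0.65, 0.74, 0.20 and 0.53). None of the 4 genes passed the 2-fold limit, and csn1 at 1 h came closest to it. Of all 4797 genes 33.6%, and of the 59 members 50.8%, stayed within 2-fold on every array with a value. A group of 4 genes is too small to set against these shares.

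APC/C subunit genes were near or below G0, with 0 of 7 at least 2-fold higher on any array. In array order, 2, 2, 1, 1 and 2 were at least 2-fold lower. These counts are 28.6% or 14.3% of the 7, where 14.6% to 22.6% of all genes were lower. The cullin-like catalytic subunit gene apc2 stood at -1.64, -0.47, -1.24 and -1.67 at 1, 2, 3.5 and 6 h and -1.37 in vegetative cells, 2-fold lower on 4 arrays. Its catalytic partner, the RING subunit gene apc11, was between -0.42 and 0.00 and so near G0. The small subunit gene apc14 was at -1.60, -1.30, -0.83 and -0.67 at 1, 2, 3.5 and 6 h and -1.18 in vegetative cells, low on all arrays and past 2-fold on 3. For apc10, which encodes a subunit that helps to bind substrates, the value was -0.33, -1.41, 0.33 and -0.11 at 1, 2, 3.5 and 6 h and 0.00 in vegetative cells. Only the 2 h array put it past 2-fold. The highest of the group on each array was apc15, with 0.86, 0.08, 0.55 and -0.06 at 1, 2, 3.5 and 6 h and 0.68 in vegetative cells. The genes apc5 (-0.46 to 0.08) and apc13 (-0.33 to 0.22) stayed close to 0.

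Deubiquitinase genes held both the highest and the lowest single values of the 59 genes. Of 18, 3 were at least 2-fold higher on every array, and 5, 3, 2, 1 and 0 were lower in array order. The higher share of 16.7% stood beside 15.6% to 23.4% of all genes. Lower shares were 27.8%, 16.7%, 11.1%, 5.56% and 0%, where 22.6%, 21.3%, 16.7%, 14.9% and 14.6% of all genes were lower. The gene ubp16 had the highest value of all members at 1, 2 and 3.5 h, with 2.79, 3.32, 2.49 and 1.89 at 1, 2, 3.5 and 6 h and 1.58 in vegetative cells. The gene ubp3, whose budding yeast counterpart acts with Bre5 in the turnover of ribosomes in starvation, stood at 2.15, 2.83, 2.404 and 2.02 at 1, 2, 3.5 and 6 h and 1.83 in vegetative cells. It was the highest member at 6 h and in vegetative cells. The third was ubp12, whose product joins the COP9 signalosome and protects F-box proteins from their own ligase, at 1.93, 1.32, 1.94 and 1.33 at 1, 2, 3.5 and 6 h and 1.52 in vegetative cells. Their values at 1 h correspond to 6.91-fold for ubp16, 4.44-fold for ubp3 and 3.82-fold for ubp12.

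Of its own values, the low deubiquitinase gene ubp15 had the one nearest G0 at 6 h, and ubp9 in vegetative cells. At 6 h and in vegetative cells ubp9 was still the lowest of the 18. The gene ubp15, the counterpart of human USP7, stood at -2.21, -4.07, -1.47 and -0.52 at 1, 2, 3.5 and 6 h and -0.58 in vegetative cells, and its 2 h value was the lowest of any member on any array. It was measured by a single spot. The gene ubp9, whose product works in the cytoplasm with Bun107 and Bun62, was at -2.59, -1.84, -2.50 and -1.38 at 1, 2, 3.5 and 6 h and -0.88 in vegetative cells, under 2-fold only in vegetative cells. At 1 h alone, ubp8 (histone H2B deubiquitination in the SAGA complex) and ubp11 were 2-fold lower, with -1.81 and -1.53. After that, ubp8 stayed between -0.84 and -0.60, while ubp11 stood at -1.53, -0.03, 0.73 and 0.54 at 1, 2, 3.5 and 6 h and 0.46 in vegetative cells.

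Genes of deubiquitinases that sit on the proteasome differed in their values. The gene uch2 stood at -1.42, -1.35, -0.06 and 0.13 at 1, 2, 3.5 and 6 h and 0.27 in vegetative cells, 2-fold lower at 1 and 2 h and near G0 from 3.5 h on, while ubp6 stayed between -0.38 and 0.56. The gene ubp14, for an enzyme that takes apart free ubiquitin chains, ranged from -0.93 to 0.09. The genes ubp4, of endosomes, and ubp5, of the Golgi, ranged from -0.34 to 0.29 and from -0.79 to 0.46. The gene uch1 stood at 0.46, 0.74, -0.33 and -0.23 at 1, 2, 3.5 and 6 h and -0.52 in vegetative cells. The genes otu2 (0.21 to 0.97), ubp1 (-0.79 to 0.19), ubp2 (-0.09 to 0.42), ubp7 (0.34 to 0.79) and ubp10 (-0.27 to 0.33) also stayed within 2-fold.

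**Figure D3:**
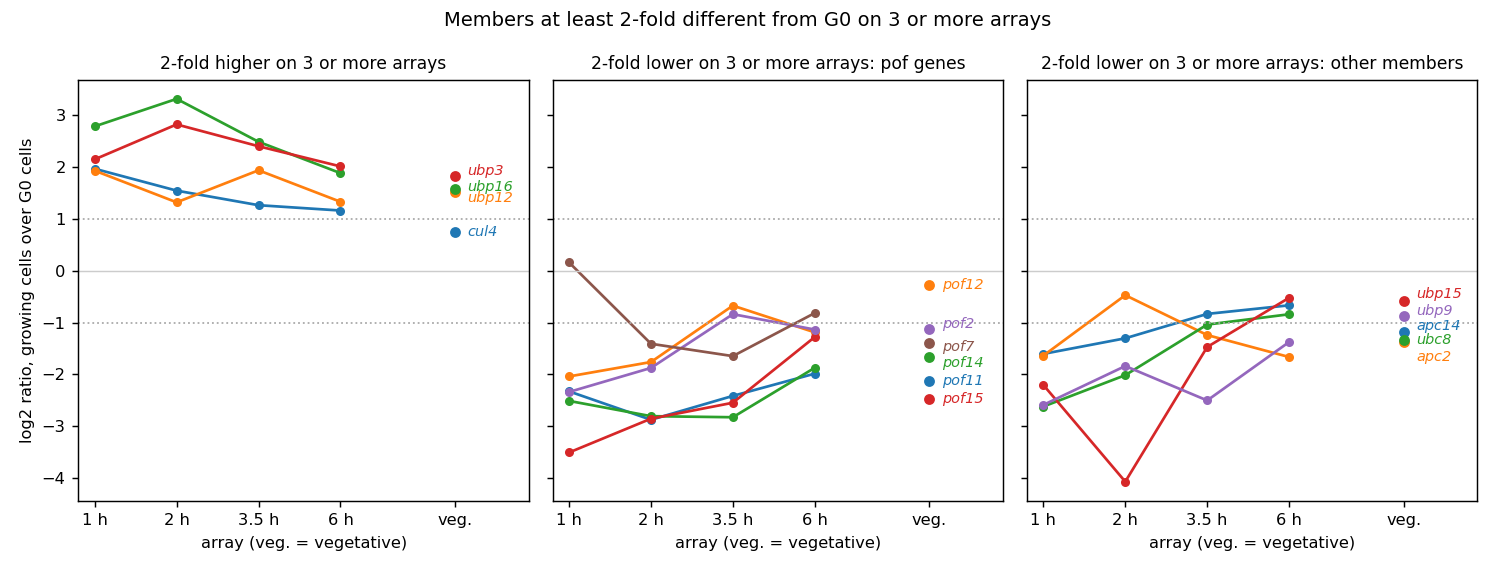
Log2 ratio over G0 (vertical axis) across the arrays for the members at least 2-fold higher (left) or lower (middle, F-box genes; right, others) than G0 on 3 or more arrays. Lines join the 4 times, the vegetative array stands apart, and dotted lines mark 2-fold; cul4 in vegetative cells is the only value of the high genes under 2-fold, and ubp15 has its low point of -4.07 at 2 h.

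Between successive arrays, few of the 59 genes differed by 2-fold. At 2 h against 1 h, 5 were higher (4.67% of all genes) and 4 lower (7.49%). Those higher at 2 h were ubp11 (difference 1.498), ubp8 (1.21), apc2 (1.17), pof5 (1.04) and skp1 (1.01), and each of them was below -1 at 1 h. Those lower at 2 h were ubp15 (-1.87), pof7 (-1.57), pof1 (-1.30) and apc10 (-1.07). The median difference was 0.11, and 0.01 over all genes.

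At 3.5 h against 2 h, 7 genes were at least 2-fold higher (11.6% of all genes) and 2 lower (10.4%). The largest difference was that of ubp15, at -1.47 at 3.5 h and -4.07 at 2 h, followed by apc10 (difference 1.74), uch2 (1.29), ubc14 (1.09), pof12 (1.09), ubp5 (1.04) and pof2 (1.04). The lower ones were uch1 (-1.07) and pof4 (-1.04), which both lay below G0 at 3.5 h and above it at 2 h. This step also crosses the change in the decimals of the columns, so time and column set cannot be told apart. With arrays centred, 3 genes were higher and 4 lower.

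The later steps involved F-box genes and ubp9. At 6 h against 3.5 h, pof15 (difference 1.27) and ubp9 (1.13) were 2-fold higher (4.13% of all genes) and 0 genes were lower (2.85%), the lowest difference being that of apc15 (-0.61). In vegetative cells against 6 h, 0 genes were 2-fold higher (3.03%) and 2 were lower (2.54%), namely pof1 at -0.71 in vegetative cells and 0.69 at 6 h, and pof15 at -2.48 in vegetative cells and -1.28 at 6 h. The highest difference at this step was that of pof12 (0.92). The median size of the vegetative difference from 6 h, sign ignored, was 0.20 for the 59 genes and 0.29 for all genes.

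**Figure D4:**
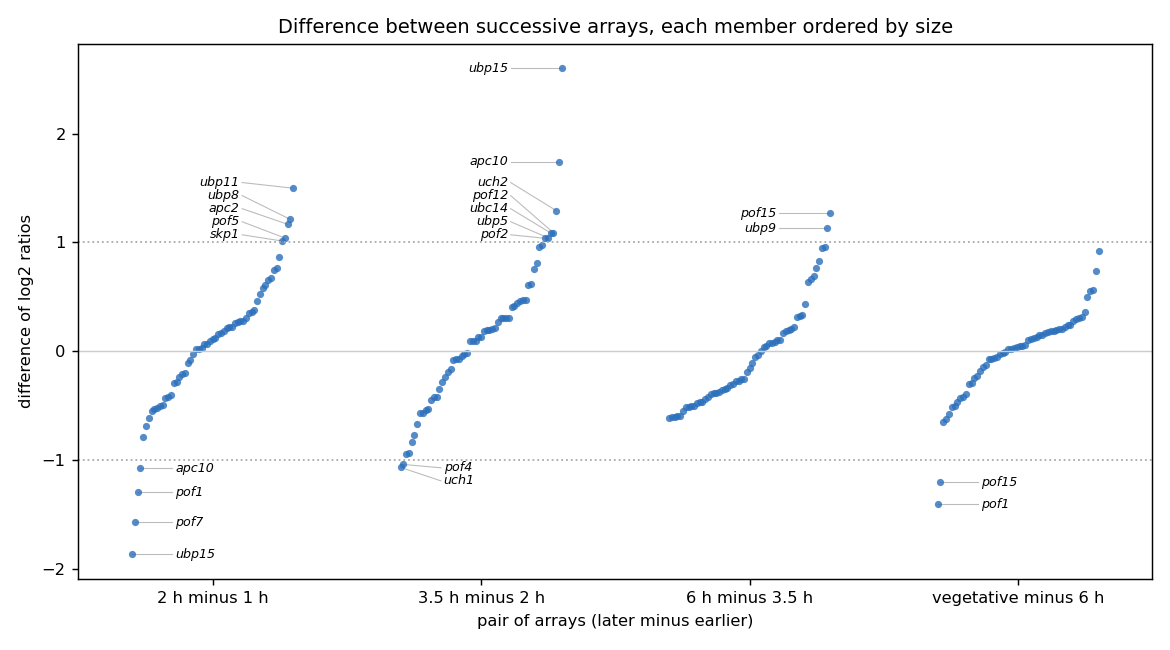
Difference of log2 ratios between successive arrays (vertical axis, later minus earlier, vegetative minus 6 h last), with a point for each of the 59 genes ordered by size within each step. Dotted lines mark 2-fold, and genes past them are named: 9 at each of the first steps and 2 at each of the later ones.

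The 4 times allowed 1 test, that of a trend. The fit by limma of the log2 ratio on the log2 of hours, with Benjamini-Hochberg adjustment over 4730 genes, called 3 of the 59 genes rising (5.08%, against 4.08% of all genes) and 0 falling (5.07% of all genes). The E2 gene ubc7 rose by 0.79 ± 0.17 (SE) per doubling of time (adjusted p = 0.041), pof15 by 0.81 ± 0.19 (adjusted p = 0.045) and ubc8 by 0.74 ± 0.17 (adjusted p = 0.046). All 3 lay below G0 at 1 h. At an unadjusted p under 0.05 there were 9 rising (15.6% of all genes) and 4 falling members (16%). The shares are near or below those of all genes. The 4 times span both column sets, so time and column set cannot be told apart here either.

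These calls were close to the threshold, and 6 of 9 alternatives lost that of ubc7, 6 that of pof15 and 7 that of ubc8. Of the 9, medians of spots cannot change the values of a member with 1 spot, so its keeping all 3 calls says nothing. Apart from it, only the fit without the 2 h array kept the call of ubc8. Over the alternatives the adjusted p ran from 0.0037 to 0.20 for ubc7, from 0.0027 to 0.44 for pof15 and from 0.0082 to 0.23 for ubc8, with all slopes above 0. Without the 1 h array pof15 and ubp15 were called, both rising, where 396 of all 4730 genes were rising and 371 falling. Without the 2 h array 7 of the 59 members were rising and 2 falling, where 503 of all 4730 genes were rising and 560 falling. Without the 3.5 h array, and likewise without the 6 h array, limma gave no member an adjusted p under 0.05.

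Genes of the ubiquitin pathway outside the 59 were counted in 9 lists. The counts below stand beside all genes, of which 23.4%, 22.8%, 18.9%, 15.6% and 15.8% were 2-fold higher in array order. Those 2-fold lower were 22.6%, 21.3%, 16.7%, 14.9% and 14.6% of all genes. The ubiquitin precursor genes ubi1, ubi2, ubi3 and ubi5, each of which encodes ubiquitin fused to a ribosomal protein, had medians of 1.81, 2.01, 2.47, 2.08 and 1.67 in array order. All 4 were 2-fold higher than G0 apart from ubi2 at 6 h (0.94). The highest was ubi1, at 2.52, 2.63, 2.86 and 2.53 at 1, 2, 3.5 and 6 h and 2.14 in vegetative cells. Pairs such as ubi1 and ubi2 encode the same protein and may cross-hybridise, so the value of each alone is uncertain. A further precursor gene of the list, ubi4, had no value, so nothing can be said of it.

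E1 genes and genes for ubiquitin-like proteins (7) had medians of -0.59, -0.58, -0.06, -0.30 and -0.11 in array order. The 1 h array had 1 gene 2-fold above and 1 below G0, the 2 h array 1 above and 2 below, and the later arrays 0 of either. The ubiquitin E1 gene uba1 was at -0.92, -2.08, -0.35 and 0.07 at 1, 2, 3.5 and 6 h and -0.11 in vegetative cells, with the 2 h value lowest. The SUMO E1 gene fub2 had -2.41, -4.18, -0.05 and -0.95 at 1, 2, 3.5 and 6 h and -0.47 in vegetative cells. On the high side, uba3, for the E1 subunit of NEDD8, had 1.71 at 1 h and lay within 2-fold on the other arrays. The SUMO gene pmt3 stood at 0.93, 1.06, 0.51 and 0.36 at 1, 2, 3.5 and 6 h and 0.61 in vegetative cells, 2-fold higher at 2 h alone, and urm1, for a modifier that also serves in tRNA thiolation, was lowest in vegetative cells with -0.83. The NEDD8 gene ned8 lay between -0.88 and -0.20. Of 3 E2 genes with other names, none was 2-fold above G0 on any array. Among them rhp6, for the E2 that marks histone H2B, stood at -1.40, -0.94, 0.02 and -0.15 at 1, 2, 3.5 and 6 h and 0.20 in vegetative cells, mms2 reached 0.74 at 6 h, and the SUMO E2 gene hus5 had -1.07 in vegetative cells.

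Other E3 ligase genes (23) had medians near 0, between -0.30 and 0.01. In array order, 3, 2, 2, 1 and 1 were 2-fold higher and 3, 3, 2, 1 and 4 lower. The highest was rhp18, of postreplication repair, at 1.98, 1.95, 1.35 and 1.17 at 1, 2, 3.5 and 6 h and 1.14 in vegetative cells. Lowest at 1 h was hrd1, for a ligase of endoplasmic reticulum associated degradation. It stood at -2.39, -2.17, -1.32 and -0.57 at 1, 2, 3.5 and 6 h and -0.27 in vegetative cells. Its lowest values were at 1 and 2 h, as those of ubc7 were. Another ligase gene of that route, doa10, did not share this. It stood at 0.66, 0.33, 0.59 and 0.51 at 1, 2, 3.5 and 6 h and -0.43 in vegetative cells. The gene pib1, for a RING and FYVE domain ligase, was the lowest of the list on every array but that of 1 h. Its values lay between -3.35 and -2.06 over all 5.

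Partners of the cullins (10 genes) counted 1, 1, 2, 1 and 1 higher and 1, 2, 3, 2 and 1 lower in array order. The gene cdt2, for the substrate receptor of the Cul4 ligase, was at -0.09, -0.19, 1.31 and 1.51 at 1, 2, 3.5 and 6 h and 1.76 in vegetative cells, so it was 2-fold higher on the arrays on which cul4 had its lowest values. The BTB-domain gene btb3 stood lowest at 1 and 2 h (-1.67 and -1.69), and pop1, for an SCF substrate receptor with WD repeats, at 3.5 h (-1.41). The BTB-domain gene btb1 was lowest at 6 h (-1.37) and in vegetative cells (-1.43), and btb2 was highest at 1 and 2 h (1.42 and 1.45). Of 8 APC/C genes with other names, 1, 1, 1, 0 and 1 were higher and 2, 2, 0, 1 and 0 lower. The activator gene slp1 was the highest on each array, at 1.16, 1.93, 1.42 and 0.87 at 1, 2, 3.5 and 6 h and 2.70 in vegetative cells. The subunit gene cut9 had -1.74 at 1 h, the lowest value there, and -1.33, -0.40 and -0.07 at 2, 3.5 and 6 h. The gene mes1, for a meiotic inhibitor of the APC/C, had -1.18 at 6 h.

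Partners of the deubiquitinases and other proteases (11 genes) had 1 gene 2-fold higher on each array and 4, 3, 1, 1 and 2 lower in array order. The gene nxt3, for the partner of Ubp3, was the high one, at 2.00, 1.55, 1.81 and 1.45 at 1, 2, 3.5 and 6 h and 1.72 in vegetative cells. The gene sst2, for a deubiquitinase of the AMSH family on endosomes, was low on all arrays, between -2.81 and -1.54. Of the Ubp9 partners, bun107 was 2-fold lower at 1 h (-1.23) and bun62 lay between -0.41 and 0.07. The NEDD8 protease gene nep2 stood at -4.14, -2.19, -0.79 and -0.32 at 1, 2, 3.5 and 6 h and -1.55 in vegetative cells. It rose by 1.52 ± 0.20 (SE) per doubling of time (adjusted p = 0.030, limma).

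Among 7 genes of the Cdc48 segregase and ubiquitin receptors, 2, 2, 2, 1 and 2 were higher and 3, 3, 0, 0 and 0 lower. The receptor gene mud1 rose by 1.10 ± 0.18 (SE) per doubling of time (adjusted p = 0.032, limma), and the receptor gene dph1 fell by 0.96 ± 0.21 (adjusted p = 0.042, limma). At 3.5 h ubx3, for a Cdc48 cofactor, was highest with 2.86. Of 9 alternatives, 3 lost the calls of nep2 and of mud1 (adjusted p up to 0.17 each in limma) and 6 that of dph1 (up to 0.28). Medians of spots, which can change only genes with more than 1 spot, were among those that kept each call. No other gene of the 9 lists passed the trend test, which called 4.08% of all genes rising and 5.07% falling.

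Proteasome genes (34) counted 0, 0, 0, 0 and 1 higher and 9, 7, 3, 0 and 0 lower in array order. The lower shares at 1 and 2 h, 26.5% and 20.6%, were near the 22.6% and 21.3% of all genes. At 3.5 h the share was 8.82%, where 16.7% of all genes were lower. The medians of the 34 genes were -0.70, -0.69, -0.24, 0.11 and 0.32. The core particle genes pre6 (-1.41 at 1 h), pre8 (-1.30 at 2 h) and pre3 (-1.29 at 3.5 h) were lowest, while pre5 (0.74 at 6 h) and the ubiquitin receptor gene rpn1301 (1.06 in vegetative cells) were furthest above G0. Slopes over time lay above 0 for 28 of the 59 members and for 30 of the 34 proteasome genes. The median slope per doubling of time was -0.03 for the 59 genes, 0.36 for the proteasome and 0.00 for all genes. In limma 0 proteasome genes passed the trend test, with 11 rising at an unadjusted p under 0.05. The difference between these sets was not tested.

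**Figure D5:**
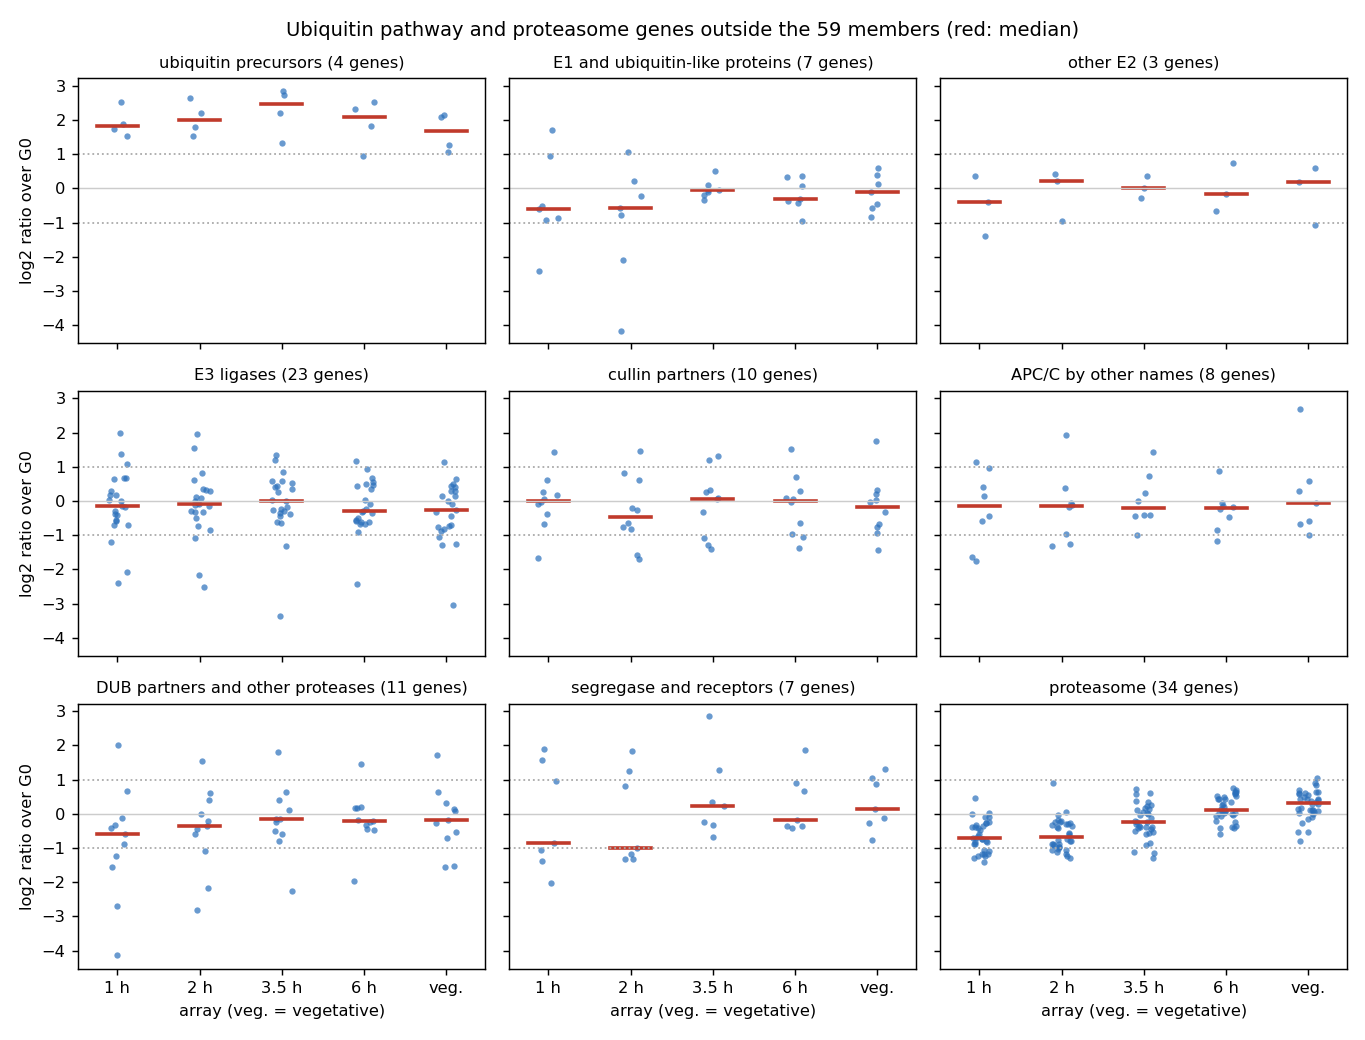
Log2 ratio over G0 (vertical axis) on the 5 arrays for 9 lists of ubiquitin pathway and proteasome genes that are not among the 59, with a point for each gene and a red line at the median. Dotted lines mark 2-fold. The 4 ubiquitin precursors with values lie above the upper line apart from ubi2 at 6 h. The proteasome median is -0.70 at 1 h, the lowest of the 5 arrays, and 0.32 in vegetative cells, the highest.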

How the data were processed

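Per the labels, polyadenylated RNA (3 to 6 µg) of the cells of each condition was labelled with Cy5 and that of G0 cells with Cy3. It was hybridised to 5 arrays, 1 per condition. The free text of the 3.5 h, 6 h and vegetative samples names 2 h, against their titles and sources, which were followed. Each deposited value is a log ratio of 1 spot and was taken as a log2 ratio, Cy5 over Cy3. How images were read and signals corrected and normalized was not given in the sources used here. Without spot intensities, precision rests on the number of arrays. Of 5188 rows, 5184 were spots in 16 blocks of 324, and 4865 of these named 1 gene. Symbols of the 59 members equal those of RefSeq (assembly ASM294v3).

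Spots of 1 gene were averaged, with 1 nda3 spot left out that the authors' average at 1 and 2 h leaves out. A gene counted as different at 2-fold, which is a rule of size. For the trend, limma 3.58.1 ran in R 4.3.3 (lmFit and eBayes, 2 residual degrees of freedom, adjusted p under 0.05). On simulated data over 4730 genes, the trend step found 180 of 200 genes given a 2-fold slope per doubling of time. It found 200 of 200 given a 4-fold slope, while 12 and 13 other genes were called in error. The simulated noise was independent for each value, with no error shared by an array. Slopes of the size of the 3 called members (log2 0.74 to 0.81) were not simulated. These counts thus do not give the reliability of the calls in the real data. Other steps used Python 3.11.15, numpy 2.4.6, pandas 2.3.3 and matplotlib 3.10.9. The rule for the 59 members uses symbols alone, but this rule and the lists were proposed with earlier results of these data known. All members are named, with full values for those 2-fold different on 3 or more arrays, for the highest and lowest of each role on each array, for the largest difference each way at each step and for called trends. Of each list, the gene with the largest log2 ratio on each array, sign ignored, is named, and further ones were chosen after their values were seen. Alternatives centred or scaled the arrays, centred blocks, used complete genes, medians of spots or 1.5-fold, took hours for time, or left out an array. Sequences were not used here.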

Additional observations from a re-analysis of the deposited data

How the results depend on the processing

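Of 388 recomputed counts and medians of the members and of the lists, 360 stayed within set limits. These were 1.5 times for counts and the error of a single repeated spot for medians. The latter is wide for a median of many genes, so staying within it says little. With centred blocks the members' median difference changed sign at 3.5 h against 2 h (0.13 to -0.05) and at 6 h against 3.5 h (-0.15 to 0.08), within that limit. The 360 include 74 from medians of spots, which cannot move a member with 1 spot. None of the members' 3 called trends changed direction. The alternatives for the lists and for single members were chosen after the data were seen. With 1.5-fold in place of 2-fold, the members higher than G0 became 9, 11, 9, 8 and 8 in array order. Those lower became 18, 19 and 18 on the last 3 arrays, and their counts at 1 and 2 h stayed within 1.5 times. The share of all genes past 1.5-fold is not given here, so these counts cannot be set beside it. Centred arrays gave 3 members higher and 4 lower at 3.5 h against 2 h, and 4 higher at 6 h against 3.5 h. Scaled arrays gave 1 higher and 2 lower at 2 h against 1 h, 3 higher and 0 lower at 3.5 h against 2 h, 1 higher at 6 h against 3.5 h, and 1 higher in vegetative cells against 6 h. Centred blocks gave 4 higher and 5 lower at 3.5 h against 2 h. Scaled arrays put the median of the ubiquitin precursors at 6 h at 2.54. The cause of these moves was not tested. Rising trends among the members by limma numbered 1 with centred arrays and 0 with scaled arrays, centred blocks or hours in place of log2 hours. Leaving out each time course array in turn gave 0 to 7 rising and 0 to 2 falling members. Over all genes, limma called 433 trends, 294 with centred arrays, 274 with scaled arrays, 131 with centred blocks and 0 with hours, and between 0 and 1063 with an array left out. No paired analysis was possible because each condition had 1 array. With 1 spot per member, no error can be given for a single value.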

Other observations

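Values at 2 h set a few genes of the pathway apart from both neighbouring times, a pattern chosen after the values were seen. Among the 59 members, ubp15 (-4.07 at 2 h, -2.21 at 1 h and -1.47 at 3.5 h) and apc10 (-1.41, -0.33 and 0.33) were at least 2-fold lower at 2 h than at both 1 h and 3.5 h. Of 107 genes of the other lists, fub2 and uba1 were. Over all 4741 genes with these 3 values, 123 (2.59%) showed this, and 38 (0.802%) the opposite, so the members' share of 3.39% is close to that of all genes. Each of the 4 named genes rests on 1 array at 2 h.

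The genes skp1 and uch2 are neighbours among protein-coding genes on chromosome II in RefSeq, and no other members adjoin. Both were 2-fold lower than G0 at 1 h (-1.70 for skp1 and -1.42 for uch2), as were 32.2% of the members and 22.6% of all genes. At 2 h uch2 was still 2-fold lower (-1.35) and skp1 was not (-0.68). A link between position and value was not tested.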
